A study of Mus musculus with 2 samples.

Results

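C1q and Ccl8 macrophages were tumor macrophages whose transcripts of complement C1q came together with Ccl8, Stab1, Selenop, Cbr2, Gas6 and Ms4a7. A barcode of a droplet-based single-cell RNA sequencing library counted as a member when it met every step of a rule on raw UMIs, the unique molecular identifiers that count captured RNA molecules. It needed 200 or more detected genes, a mitochondrial share of UMIs below 10%, at least 3 UMIs over C1qa, C1qb and C1qc, and at least 3 UMIs over the 6 genes above. That second sum had to exceed the sum over Gpnmb, Gdf15, Cd36, Arg1, Ppbp and Ctsk. At most 2 UMIs were allowed over the interferon-stimulated genes Rsad2, Ifit1, Ifit2, Ifit3 and Cmpk2, and none over Cd3d, Cd3e and Cd3g, the T cell receptor signalling chains. The rule took 1279 of 10801 quality-passing barcodes, 870 of 5576 in the shSdc1 library and 409 of 5225 in the shRFP library.

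Both libraries came from live cells sorted for CD45, the surface protein of blood-derived cells, from B16 tumors of mice labelled wild-type. B16 is a mouse melanoma line. All mice had first been vaccinated under the skin of one flank with irradiated, GM-CSF-producing B16 cells, GM-CSF being a growth factor for myeloid cells. After 12 days the other flank received B16 cells carrying either a short hairpin that targets Sdc1 (shSdc1) or one named shRFP. Sdc1 encodes syndecan-1, a heparan sulfate proteoglycan of the cell surface. Tumors were taken 16 days later and 6 per group were pooled into 1 library, so each group is 1 sample. The genotype field gives a knockout for shSdc1, against the title and growth protocol, which place a hairpin in the injected tumor cells. The sorted cells are the hosts' own. No difference below has a replicate check or a p-value. Genes are called higher or lower by size, and 95% intervals in brackets are exact, cover counting error only and say nothing of the spread between mice, tumors or libraries.

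C1q is the recognition molecule of the classical complement pathway, and in tissues macrophages make most of it. Macrophages with C1q, Stab1, Selenop and Mrc1 are known in many tissues and tumors as cells that clear dying cells and scavenge ligands, and they are often set against macrophages with hypoxia, matrix and inflammatory genes. Ccl8 is a chemokine that attracts monocytes and other leukocytes, stabilin-1 (Stab1) is a scavenger receptor, selenoprotein P (Selenop) carries selenium, Gas6 bridges dying cells to the receptor Mertk, Cbr2 is a carbonyl reductase, and Ms4a7 is a membrane protein of macrophages.

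The members were selected on these same UMIs, so the genes of the rule are given as a description, in UMIs per member. C1q transcripts averaged 17.5 UMIs in shSdc1 members and 19.0 in shRFP members, and the 6-gene sum averaged 7.44 and 6.45. Ms4a7 and Selenop were the most widely detected of the 6 genes in both libraries. Ms4a7 was found in 74.3% of shSdc1 members and 69.2% of shRFP members, Selenop in 60.9% and 69.4%, and Stab1 in 55.5% and 59.4%. Gas6 was found in 23.4% of shSdc1 members and 24.0% of shRFP members, and Cbr2 in 21.0% and 25.2%. Ccl8 was the least even of the 6: it was found in 57.2% of shSdc1 members but 41.6% of shRFP members, with up to 35 UMIs in 1 shSdc1 member and 16 in 1 shRFP member. The name therefore covers many barcodes without a Ccl8 UMI. Genes of the opposing sum were absent from 510 shSdc1 members (58.6%) and 206 shRFP members (50.4%).

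As a gene of the rule, Ccl8 is described by level without a test. CPM scales a gene's UMIs to 1e6 UMIs of the same barcodes. Ccl8 had 2188 UMIs, or 2529 CPM, in shSdc1 and 560 UMIs, or 1122 CPM, in shRFP, a ratio of 2.25 [2.05 to 2.48]. Where the same rule was run without Ccl8 in the sum, the 695 shSdc1 and 345 shRFP barcodes it took had 2070 and 714 CPM of Ccl8, a ratio of 2.90 [2.56 to 3.29]. Among all members Ccl8 supplied 33.8% of the 6-gene UMIs in shSdc1 and 21.2% in shRFP. Ms4a7 had a ratio of 1.39 [1.27 to 1.52], while Stab1 (1.14), Gas6 (1.15), Selenop (1.10) and Cbr2 (0.907) lay nearer to 1. With every barcode thinned to 500 UMIs, Ccl8 was found in 45.6% of 731 shSdc1 members and 28.8% of 375 shRFP members, where 139 shSdc1 members and 34 shRFP members were too shallow to enter. T cell barcodes, taken as those with at least 2 UMIs over the CD3 genes and none of C1q, served as cells that should lack the gene. Free macrophage RNA in them may be understated, since C1q was required to be 0. At the same depth Ccl8 was found in 0.851% of 470 shSdc1 T cell barcodes and in 0 of 213 shRFP T cell barcodes, and with any number of C1q UMIs in 2.08% of 529 and in 0 of 235. The T cell barcodes' unthinned median depths were 574.5 and 516 UMIs, where members had 852 and 1115.

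**Figure D1:**
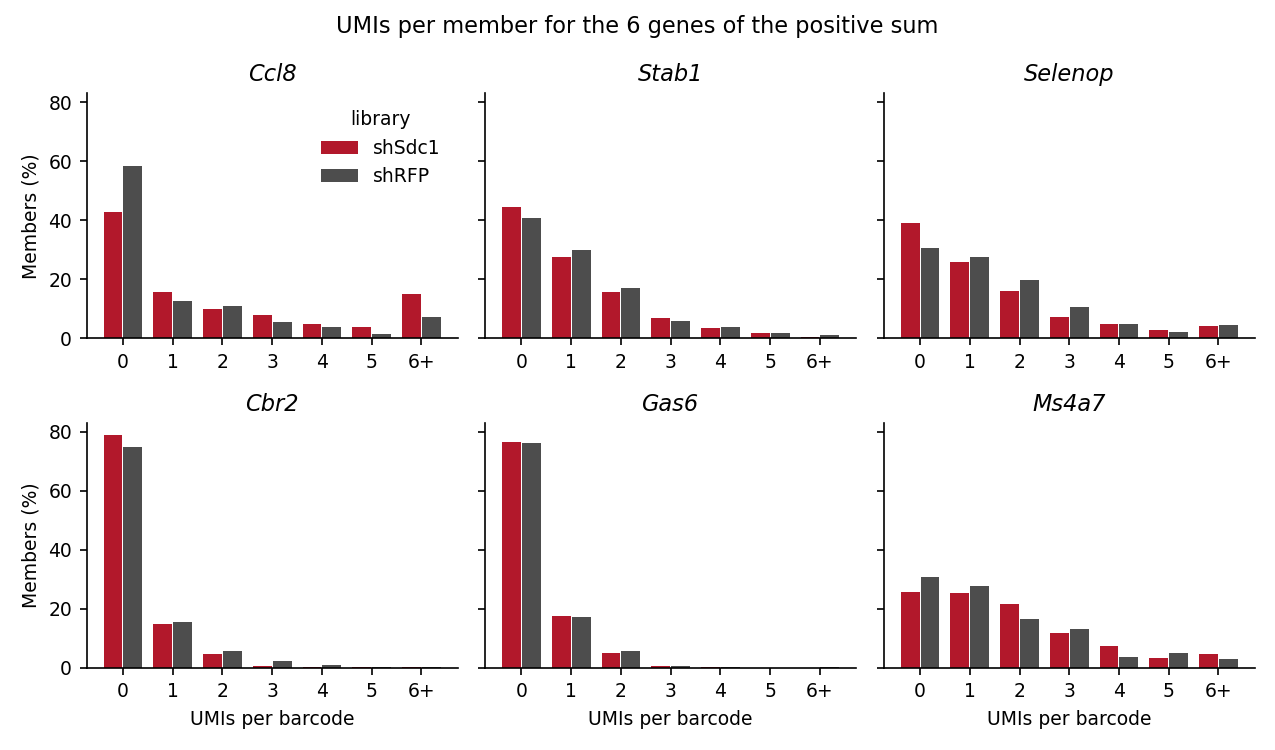
Share of members (vertical axis, %) by UMIs per barcode (horizontal axis, 6+ pools higher counts) for the 6 genes of the positive sum, with shSdc1 bars left of shRFP bars. Ccl8 is found in 57.2% of shSdc1 and 41.6% of shRFP members, the widest gap of the 6 genes.

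Ccl8 (ENSMUSG00000009185) lies on chromosome 11 of mm10 at 82115185 to 82116799, plus strand, in a cluster of monocyte-attracting chemokine genes, and Ccl12 starts 13340 bases before it. The 160 bases before the start of each are shown because Ccl8 named the members and Ccl12, which the rule did not use, was among the genes higher in members than in their Gpnmb-side counterparts below. The sequences are RefSeq's on GRCm38.p6, read 5′ to 3′ on the gene's strand, at chr11:82115025-82115184 for Ccl8 and chr11:82101685-82101844 for Ccl12. Capitals mark TATAAA and the Maf half-site TGCTGA on either strand, whose factor gene Maf was also higher in members. Over the 300-base windows of RefSeq, from 250 bases before to 50 after the start, 15.7% of 27025 genes hold TATAAA on either strand and 21.7% hold TGCTGA. The marked motifs overlap no other motif searched, and a match describes letters, not a bound site.
Ccl8: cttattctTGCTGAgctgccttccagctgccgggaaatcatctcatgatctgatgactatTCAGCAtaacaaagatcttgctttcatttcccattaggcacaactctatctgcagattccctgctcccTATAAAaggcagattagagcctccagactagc
Ccl12: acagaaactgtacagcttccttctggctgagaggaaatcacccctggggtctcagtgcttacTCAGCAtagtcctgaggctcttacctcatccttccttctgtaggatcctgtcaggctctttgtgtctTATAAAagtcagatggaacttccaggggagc

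The members looked like macrophages by genes outside the rule and held few or no transcripts of fibroblast, mast cell, red cell, T cell and NK cell markers. The 8 macrophage identity genes had 13666 UMIs in shSdc1 members and 7952 in shRFP members, led by Lyz2, and none was at 0. The 7 fibroblast, 7 mast cell and basophil and 5 red cell markers had no UMI in either library's members. The 10 T cell markers had 87 UMIs in shSdc1 members and 26 in shRFP members, the 8 NK cell markers 10 and 8, and the 8 neutrophil markers 47 and 31, of which 45 and 15 were Csf3r. Of the 10 melanoma markers' 186 UMIs in shSdc1 and 82 in shRFP, 127 and 64 were Syngr1. The melanoma list was at 215 CPM in shSdc1 members and 164 CPM in shRFP members, against 111 and 61.1 CPM in all other quality-passing barcodes. Jchain, a plasma cell gene, had 105 UMIs in shSdc1 members and none in shRFP members. The 8 B and plasma cell markers together had 142 in shSdc1 and 31 in shRFP. Only 5 shSdc1 and 6 shRFP members held 2 or more UMIs of these 8 markers. The lists of type 2 conventional and plasmacytoid dendritic cells were led by Sirpa (632 and 289 UMIs) and Bst2 (566 and 296 UMIs), which macrophages also express. The 6 markers of type 1 conventional dendritic cells had 249 UMIs in shSdc1 members and 98 in shRFP members, led by Cadm1 (146 and 57), with Clec9a at 0 in both and Xcr1 at 0 in shRFP. These 6 markers were at 288 and 196 CPM in members, against 255 and 169 CPM in all other quality-passing barcodes. Timd4, Vsig4 and Clec4f, genes of resident macrophages of other organs, had no UMI in 870 shSdc1 members and 409 shRFP members, which allows shares of barcodes with a UMI of up to 0.345% and 0.733% and does not limit the share of cells expressing them. Lyve1, a gene of perivascular macrophages, was found in 4 shSdc1 members and 5 shRFP members, and Mrc1, the mannose receptor, in 297 and 176. Siglec1, Marco and Cd163, further macrophage genes, were found in 48, 5 and 2 shSdc1 members and in 19, 3 and 3 shRFP members.

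Of facts that touch every result, depth came first. Members had a median of 852 UMIs and 529.5 genes in shSdc1 and 1115 UMIs and 660 genes in shRFP, and summed to 865222 and 499288 UMIs. The libraries held 5902 and 5786 barcodes, and 20 barcode sequences occurred in both, 4 of them members in each library. Doublets were not removed. Scrublet's automatic threshold marked 0 shSdc1 and 1 shRFP barcodes, too few for it to have worked. The 249 of 5576 shSdc1 and 218 of 5225 shRFP quality-passing barcodes of highest score held 14 and 17 members. These were 1.61% of shSdc1 members and 4.16% of shRFP members.

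A larger share of the sorted cells were C1q and Ccl8 macrophages in the shSdc1 library. They were 15.6% [14.7 to 16.6] of quality-passing barcodes in shSdc1 and 7.83% [7.11 to 8.59] in shRFP, a ratio of 1.99 [1.77 to 2.25]. Among barcodes with at least 3 C1q UMIs they were 45.8% of 1900 in shSdc1 and 32.6% of 1253 in shRFP, a ratio of 1.40 [1.25 to 1.58]. The mirror class, called Gpnmb-side here, had at least 3 UMIs of the opposing sum, more than of the 6-gene sum, and otherwise met the same steps. These 195 shSdc1 and 171 shRFP barcodes were 3.50% and 3.27% of quality-passing barcodes, a ratio of 1.07 [0.866 to 1.32]. The member ratio was 2.62 [2.21 to 3.13] with every barcode thinned to 500 UMIs, where members were 13.7% in shSdc1 and 5.24% in shRFP. It was 1.58 with at least 500 genes per barcode. The sort and the shares of other leukocytes enter the first ratio, and their part in it was not tested.

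**Figure D2:**
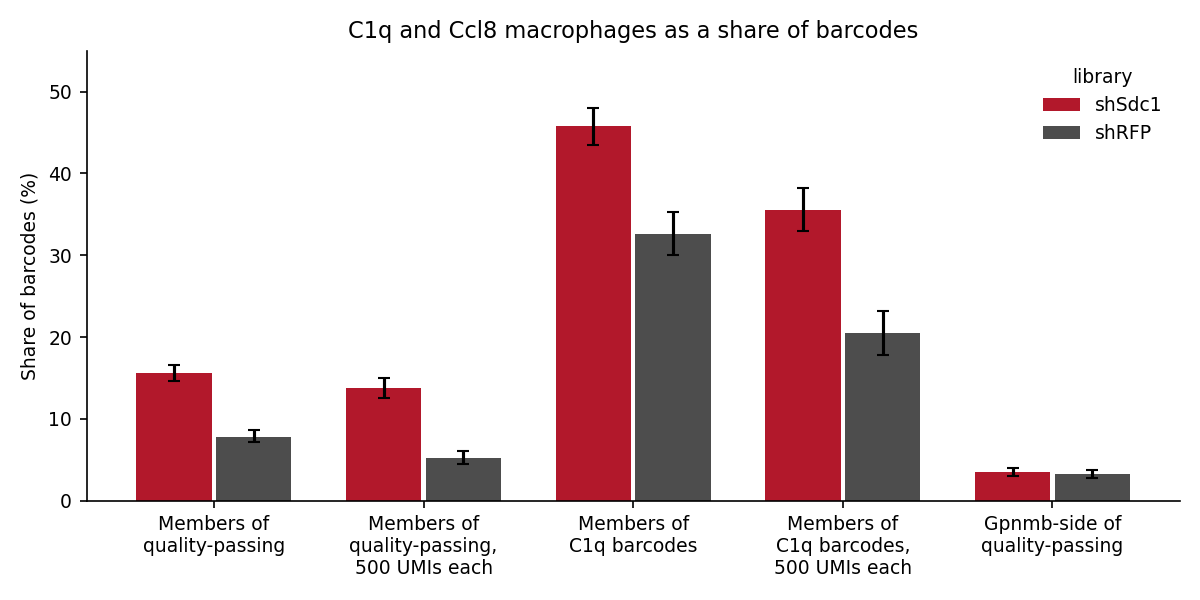
Share of barcodes (vertical axis, %) for members over quality-passing and C1q barcodes, at full depth and thinned to 500 UMIs, and for Gpnmb-side macrophages, with shSdc1 left of shRFP and exact 95% intervals. Members are 15.6% and 7.83% of quality-passing barcodes, while Gpnmb-side macrophages are 3.50% and 3.27%.

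The other C1q barcodes that were not members divided as follows. In shSdc1 681 and in shRFP 591 had under 3 UMIs of both sums, and 19 and 15 had 2 equal sums of 3 or more. A further 69 and 37 had more than 2 interferon-stimulated UMIs, and 66 and 30 had a CD3 UMI. With exactly 3 UMIs of the 6-gene sum, 153 shSdc1 and 98 shRFP members had 13096 and 8673 CPM of Apoe, the lipid-carrying apolipoprotein E. With 2 UMIs, 184 shSdc1 and 109 shRFP barcodes had 11536 and 6834 CPM. H2-Aa, a chain of MHC class II, was at 1747 and 1473 CPM inside and at 3021 and 2144 CPM outside.

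Set against Gpnmb-side macrophages, members had more Apoe, Maf, Fc receptor transcripts and Ccl12 in both libraries. The classes were made from these same cells' values, so the figures are a description. Apoe was at 16866 CPM in members and 7337 CPM in Gpnmb-side macrophages of shSdc1, and at 11382 and 4612 CPM in shRFP, ratios of 2.30 and 2.47. Maf, a transcription factor of tissue macrophages, was 2.19-fold higher in members in shSdc1 and 2.10-fold in shRFP. Higher in members in both were also Aif1, an actin-binding macrophage protein (2.09 and 2.53), and Fcrls, an Fc receptor-like gene (2.54 and 4.73). So were Fcgrt, the neonatal Fc receptor (3.25 and 3.84), and Igfbp4, which binds insulin-like growth factors (3.06 and 15.8). On the Gpnmb side Igfbp4 had 13 UMIs in shSdc1 and 3 in shRFP, where its interval was [5.28 to 77.9]. Fcgrt had 13 and 7 UMIs there. Ccl12, a chemokine for monocytes, was 2.11-fold and 2.33-fold higher, and with both sums at 5 or more its smaller ratio was 1.48. Of 7 Fc receptor genes 2 were at least 1.5-fold higher in both libraries (Fcgr4 and Fcgrt), and of 7 perivascular and resident macrophage genes Maf was higher and F13a1 lower. Lipid handling genes had 2 of 17 higher in both, Apoe and Pltp, and 4 lower, Fabp4, Fabp5, Lgals3 and Plin2. Lists take genes with at least 20 UMIs in each library, and of all 4617 such genes 7.45% were higher in both and 5.50% lower. Tmem176b, Itm2b, Pou2f2, Cx3cr1 and Tmem86a completed the 12 leading genes. At equal depth the last 3 had no Gpnmb-side UMI in the library of the smaller ratio, so their size there could not be read. The markers of type 1 conventional dendritic cells had 2 of 3 measured genes higher in members in both, Cadm1 and Wdfy4. In all, 100 of 2190 genes with at least 50 UMIs in each library were at least 1.5-fold higher in members in both libraries (4.57%), and 149 were at least 1.5-fold lower (6.80%). With median-of-ratios scaling these counts were 70 and 187. That scaling moved all log2 ratios by -0.12 in shSdc1 and -0.11 in shRFP.

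Hypoxia, matrix and inflammatory genes stood lower in members. Of 20 measured hypoxia and glycolysis genes, 16 were at least 1.5-fold lower in both libraries and none was higher, with a median log2 ratio of -0.95 in shSdc1 and -0.81 in shRFP, against 0.11 and 0.12 over all 4617 genes with at least 20 UMIs in each library. Over those 4617 genes 5.50% were lower in both libraries and 7.45% higher. Hilpda, a lipid droplet protein induced by low oxygen, was at 112 CPM in members and 577 CPM in Gpnmb-side macrophages of shSdc1, and at 150.2 and 800.4 CPM in shRFP. Of 13 matrix and protease genes 7 were lower in both. Thbs1, which encodes the matrix protein thrombospondin-1, had ratios of 0.152 in shSdc1 and 0.153 in shRFP, Spp1 (osteopontin) 0.200 and 0.213, Fn1 (fibronectin) 0.112 and 0.216, and Mmp12 (macrophage elastase) 0.252 and 0.108. Of 12 inflammatory genes 9 were lower in both, among them Il1b (0.174 and 0.269) and Ptgs2, the inducible cyclooxygenase (0.201 and 0.138), while Il18 was higher. Of 17 chemokines 7 were lower in both, including the neutrophil attractant Cxcl2 (0.202 and 0.240), and 2 were higher, Ccl12 and Cxcl16. Of 8 recruited monocyte genes 7 were lower in both, Ccr2, Fn1, Plac8, S100a10, S100a4, S100a6 and Thbs1. The dissociation stress list had 7 of 20 genes lower in both. Proliferation genes went the other way, with 6 of 16 higher in both, among them Top2a and Birc5.

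**Figure D3:**
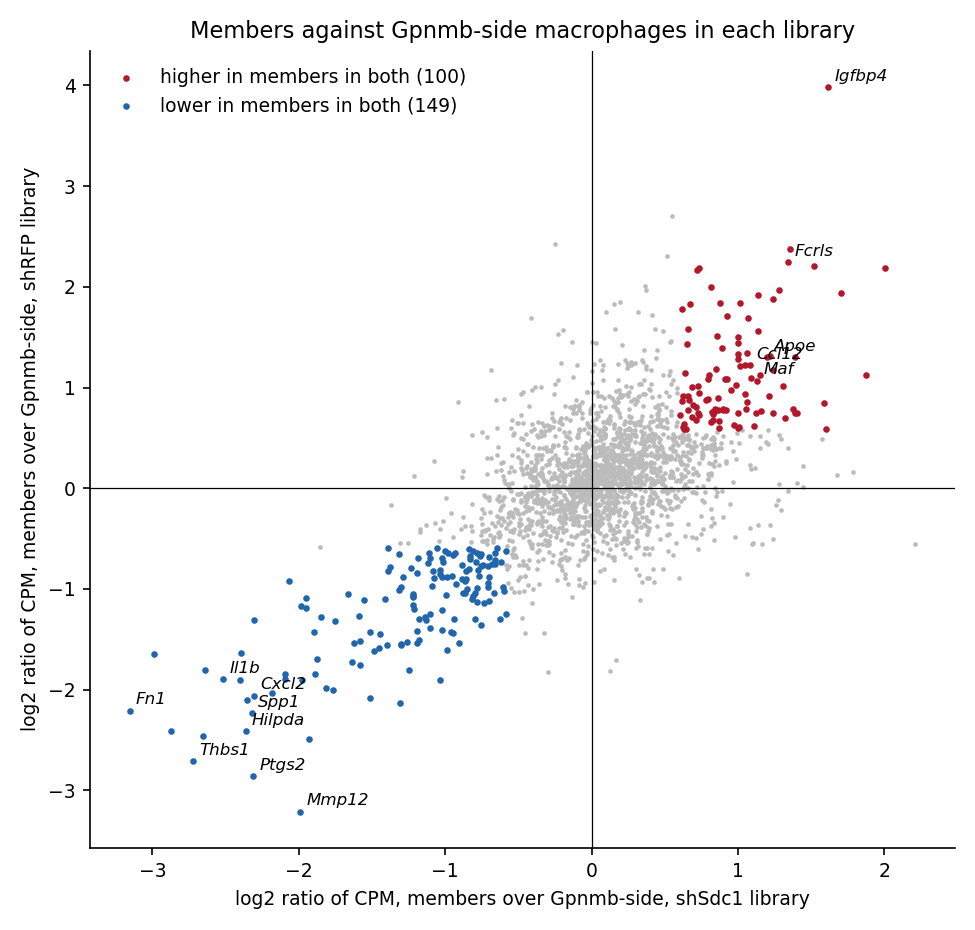
Log2 ratio of CPM, members over Gpnmb-side macrophages, in the shSdc1 library (horizontal axis) and the shRFP library (vertical axis), 1 point for each of 2190 genes. The 100 red genes are at least 1.5-fold higher in members in both libraries and the 149 blue genes at least 1.5-fold lower; Apoe and Maf sit upper right, Thbs1, Spp1 and Cxcl2 lower left.

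Against the C1q barcodes with under 3 UMIs of both sums, members had more transcripts of 4 of 7 perivascular and resident macrophage genes (Folr2, Igf1, Mrc1 and Pf4) and less MHC class II. Here 70 of 3160 genes (2.22%) were at least 1.5-fold higher in both libraries and 101 (3.20%) at least 1.5-fold lower. Folr2, the folate receptor of resident-type macrophages, was at 184 CPM in members and 85.1 CPM in the other barcodes of shSdc1, and at 156 and 20.4 CPM in shRFP. Vcam1, an adhesion molecule, had ratios of 3.14 in shSdc1 and 2.70 in shRFP, Pf4, a platelet-type chemokine also made by macrophages, 1.78 and 2.11, and Ctsd, a lysosomal protease, 1.72 and 1.95. Of 7 MHC class II genes 6 were lower in members in both libraries, where 3.51% of 5839 genes with at least 20 UMIs in each were lower and 3.17% higher. H2-Ab1, an MHC class II chain, was at 1619 CPM in members and 3439 CPM in the other barcodes of shSdc1, and at 1106 and 2914 CPM in shRFP. Ccr2, the receptor by which monocytes leave the bone marrow, had ratios of 0.348 and 0.324. Against Gpnmb-side macrophages, none of 6 measured MHC class II genes passed 1.5-fold the same way in both libraries.

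Between the libraries, members from shSdc1 tumors had more transcripts of interferon gamma response and antigen presentation genes. Of 3944 genes with at least 50 UMIs in members of both libraries together, 300 were at least 1.5-fold higher in shSdc1 (7.61%) and 259 at least 1.5-fold lower (6.57%), and the interval also lay off 1 for 174 (4.41%) and 197 (4.99%). Cxcl9, an interferon-induced chemokine for T cells, led them. It had 415 UMIs, or 479.6 CPM, in shSdc1 members and 80 UMIs, or 160.2 CPM, in shRFP members, a ratio of 2.99 [2.35 to 3.85], and was found in 139 of 870 and 43 of 409 members. One shRFP member held 15.0% of that library's Cxcl9 UMIs. At 500 UMIs per barcode Cxcl9 was found in 11.8% of shSdc1 members and 3.47% of shRFP members, against 0.426% and 0 of T cell barcodes, or 1.13% and 0.426% with any number of C1q UMIs. With members also chosen at that depth, the Cxcl9 ratio was 5.19 [2.54 to 12.3].

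The interferon gamma list had a median log2 ratio of 0.68 over 17 measured genes, against 0.01 over all 6794 genes with at least 20 UMIs, and all 17 lay above 0. Of the 17, 10 were at least 1.5-fold higher and none lower, where 13.0% of all genes were higher and 10.1% lower. With every barcode thinned to 500 UMIs only 6 of these genes still had 20 UMIs over 463 shSdc1 and 185 shRFP members, and their median was 0.13, with 4 above 0. Irgm1, a GTPase that acts against intracellular microbes, was at 62.4 CPM in shSdc1 members and 20.03 CPM in shRFP members, a ratio of 3.12 [1.57 to 6.86]. Igtp, another GTPase, had a ratio of 2.80 [1.22 to 7.49]. Cxcl10, induced by the same pathway, stood at 306 CPM in shSdc1 members and 284 CPM in shRFP members, a ratio of 1.08 [0.875 to 1.33]. The type I interferon list had 8 of 18 genes higher and none lower, with a median of 0.51; Isg15 was at 151 CPM in shSdc1 and 78.1 CPM in shRFP (1.94 [1.35 to 2.85]) and Oasl2 at 60.1 and 20.03 CPM. The rule capped 5 type I genes in every member, so it bounded this list in both libraries. The same lists had medians of 0.28 and 0.13 in Gpnmb-side macrophages, 0.70 and 0.47 in C1q barcodes low in both sums, and 0.42 and 0.29 in T cell barcodes.

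The sequence before Irgm1 is shown for the letters that interferon lists share. It is RefSeq's on GRCm38.p6 at chr11:48871421-48871580, minus strand, read 5′ to 3′ on the gene's strand, with capitals on the interferon response letters GAAANNGAA. There are 2 matches that overlap each other, and no other motif searched overlaps them. Of the 15 interferon gamma list genes with a RefSeq window 13 hold these letters on either strand (86.7%), Cxcl9 among them, as do 10 of 14 type I genes (71.4%), against 9.76% of all 27025 genes, 1 of 16 inflammatory genes and 1 of 16 dissociation stress genes.
Irgm1: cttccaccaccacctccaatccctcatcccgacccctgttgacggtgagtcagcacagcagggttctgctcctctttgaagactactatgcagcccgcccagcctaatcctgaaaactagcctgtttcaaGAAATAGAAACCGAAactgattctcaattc

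MHC genes were higher in shSdc1 members as well. H2-Eb1, an MHC class II chain, was at 1649 CPM in shSdc1 members and 913 CPM in shRFP members, a ratio of 1.81 [1.62 to 2.01]. H2-Aa was at 1820.3 and 1082 CPM (1.68 [1.53 to 1.86]), and Cd74, the class II chaperone, at 4228 and 3058 CPM (1.38 [1.30 to 1.47]). All 7 measured class II genes had a ratio above 1, with a median log2 ratio of 0.55, and 3 reached 1.5-fold. Over all genes with at least 20 UMIs, 13.0% were at least 1.5-fold higher and 10.1% lower. T cell barcodes, which should lack H2-Aa, held it in 2.55% at 500 UMIs in shSdc1 and 8.45% in shRFP, against 36.5% and 24.0% of members. With any number of C1q UMIs, CD3-positive barcodes held it in 4.35% and 10.2%. The 3 measured markers of type 1 conventional dendritic cells had a median log2 ratio of 0.56 in members, and their part in the MHC differences was not tested. All 14 MHC class I genes lay above 1 too, with a median of 0.47 and 4 at 1.5-fold or more. The class I median was 0.43 in Gpnmb-side macrophages, 0.38 in C1q barcodes low in both sums and 0.12 in T cell barcodes. With members chosen at 500 UMIs per barcode, 10 of 13 class I genes and 4 of 6 class II genes lay above 1. Tap1, which pumps peptides into the endoplasmic reticulum, was at 122.5 CPM in shSdc1 members and 50.1 CPM in shRFP members (2.45 [1.57 to 3.95]), and at 500 UMIs per barcode its ratio was 1.48 [0.627 to 4.05].

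Of 19 measured lipid handling genes, 4 were at least 1.5-fold higher and 1 lower, where 13.0% of all genes were higher and 10.1% lower. Nr1h3, the gene of the oxysterol receptor LXR alpha, was at 63.6 CPM in shSdc1 members and 20.03 CPM in shRFP members (3.17 [1.60 to 6.98]), and with barcodes of 600 to 1500 UMIs its ratio was 1.87 [0.835 to 4.74]. Abcg1, a cholesterol exporter, had a ratio of 2.04 [1.37 to 3.12], and Pltp, the phospholipid transfer protein, 1.94 [1.56 to 2.43]. Apoe, at 16866 CPM in shSdc1 members and 11382 CPM in shRFP members, had 1.48 [1.44 to 1.53]. Ch25h, which makes an oxysterol, was lower at 0.629. Complement C3 was at 67.0 CPM in shSdc1 members and 22.0 CPM in shRFP members (3.04 [1.58 to 6.43]). At 500 UMIs per barcode the C3 ratio was 1.30 [0.401 to 5.47], and in Gpnmb-side macrophages it was 0.548 [0.197 to 1.43]. C1qa, C1qb and C1qc, which the rule used, had ratios of 1.16, 1.09 and 1.15. Retnla, a secreted product of type 2 macrophages, came from 24 shSdc1 and 6 shRFP members, 1 of which held 31.2% of the shRFP UMIs. Inppl1, an inositol phosphatase, Znfx1, an RNA helicase, and Ly6a, the surface antigen Sca-1, completed the 12 leading genes with ratios of 3.57, 4.23 and 2.22. In Gpnmb-side macrophages these 3 genes had ratios of 4.01, 0.890 (on 9 UMIs in each library) and 1.68. In C1q barcodes low in both sums the ratios were 1.21, 1.58 and 1.45. Ly6a had 1.84 in T cell barcodes. Retnla had a ratio of 3.21 in members, 4.81 in Gpnmb-side macrophages and 7.17 in C1q barcodes low in both sums.

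Inflammatory, chemokine and stress genes were lower in shSdc1 members. Il1b, the gene of interleukin-1 beta, had 129 CPM in shSdc1 members and 363 CPM in shRFP members, a ratio of 0.357 [0.280 to 0.454], and was found in 39 and 47 members. T cell barcodes held 33.7 CPM of Il1b in shSdc1 and 135.6 CPM in shRFP, a ratio of 0.248, and the part of free RNA in the members' difference was not tested. Of 12 measured inflammatory genes 6 were at least 1.5-fold lower and none higher, with a median log2 ratio of -0.55. Over all 6794 genes with at least 20 UMIs, 10.1% were lower and 13.0% higher. The inflammatory median was -0.51 in Gpnmb-side macrophages, -0.71 in C1q barcodes low in both sums and -0.06 in T cell barcodes. Tnf had a ratio of 0.622 and Ptgs2 of 0.555. Cxcl2 was at 840.2 CPM in shSdc1 members and 1742 CPM in shRFP members, a ratio of 0.482 [0.436 to 0.533]. Its ratio was 0.572 in Gpnmb-side macrophages, 0.414 in C1q barcodes low in both sums and 0.952 in T cell barcodes. Of 16 chemokines 5 were lower (Ccl2, Ccl3, Ccl7, Cxcl1 and Cxcl2) and 2 higher (Cxcl9 and Ccl24). The higher count is near the share over all genes, and of these 2 only Cxcl9 had an interval above 1. The chemokine median was -0.48 in members and -0.38 in Gpnmb-side macrophages. It was -0.52 in C1q barcodes low in both sums and -0.34 in T cell barcodes. The monocyte attractants near Ccl8 on chromosome 11 had ratios of 0.665 for Ccl2, 0.665 for Ccl7 and 0.714 for Ccl12. With Ccl8 left out of the rule these were 0.586, 0.629 and 0.631, beside 2.90 for Ccl8.

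Matrix and monocyte genes among the 12 lowest were Fn1, Spp1 and Chil3. Fn1 was at 48.5 CPM in shSdc1 members and 244 CPM in shRFP members (0.199 [0.136 to 0.284]), and 1 shRFP member held 20.5% of that library's UMIs. Spp1 was at 426 and 909 CPM (0.469 [0.408 to 0.539]). Chil3, a chitinase-like protein of monocytes, had 9 UMIs in shSdc1 members and 42 in shRFP members, or 10.4 and 84.1 CPM. T cell barcodes held 4 UMIs of Chil3, or 6.42 CPM, in shSdc1 and 28 UMIs, or 97.4 CPM, in shRFP. The members' values lay near these and are not read as a difference. The part of free RNA in them was not tested. Its ratio in members at 500 UMIs per barcode was 0.599. Fn1 and Spp1 were lower in shSdc1 in Gpnmb-side macrophages too, at ratios of 0.383 and 0.498. In T cell barcodes Fn1 had 6 UMIs, or 9.62 CPM, in shSdc1 and 13 UMIs, or 45.2 CPM, in shRFP, a ratio of 0.213 [0.0664 to 0.600]. Spp1 was there at 83.4 and 177 CPM, a ratio of 0.470. The part of free RNA in the members' Fn1 and Spp1 differences was not tested. Hypoxia and glycolysis genes had 2 of 20 lower, Bnip3 and Ero1l, and a median of -0.33, where 10.1% of all genes were lower. Proliferation genes had 0 of 19 past 1.5-fold either way.

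The dissociation stress list, immediate early and heat shock genes known to be induced while tissue is digested, was lower throughout. All 20 genes lay below 1, with a median log2 ratio of -0.70. Of them 13 were at least 1.5-fold lower, where 10.1% of all genes were lower and 13.0% higher. Hspa1a, the inducible heat shock protein HSP70, was at 489 CPM in shSdc1 members and 1236 CPM in shRFP members (0.396 [0.349 to 0.448]). Its near-identical copy Hspa1b had a ratio of 0.440 [0.384 to 0.503], and reads of the pair cannot be told apart with certainty. Hspb1 had 0.180, Ier2 0.355, and Fos, Jun and Dusp1 0.651, 0.612 and 0.572. Plk2, Rhob and Ifrd1, which are not on the list, completed the 12 lowest genes with 0.372, 0.442 and 0.418. The list was lower in shSdc1 outside the members as well, with a median log2 ratio of -0.29 in Gpnmb-side macrophages, -0.56 in C1q barcodes low in both sums and -0.54 in T cell barcodes. It sums to 8384 CPM in shSdc1 members and 13507 CPM in shRFP members, and its part in the other differences was not tested.

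The sequences before Cxcl2 and Hspa1a, from the lower lists, are RefSeq's on GRCm38.p6 at chr5:90903739-90903898, plus strand, and chr17:34972157-34972316, minus strand, each read 5′ to 3′ on the gene's strand. Capitals mark the NF-kB letters GGGNNTTTC in Cxcl2, with 2 matches, and the heat shock letters GAANNTTC in Hspa1a, with 1. GGGNNTTTC occurs in 5 of 16 chemokine and 5 of 16 inflammatory windows, and also in 4 of 15 interferon gamma windows, Cxcl9 among them, against 5.06% of all genes, while GAANNTTC occurs in 4 of 16 stress windows (25.0%), Jun, Hspa1a, Hspa1b and Hspb1, against 9.04%. No match shown overlaps another motif searched.
Cxcl2: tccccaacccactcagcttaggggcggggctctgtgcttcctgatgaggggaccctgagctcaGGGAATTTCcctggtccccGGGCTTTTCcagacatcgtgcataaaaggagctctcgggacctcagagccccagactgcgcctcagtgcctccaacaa
Hspa1a: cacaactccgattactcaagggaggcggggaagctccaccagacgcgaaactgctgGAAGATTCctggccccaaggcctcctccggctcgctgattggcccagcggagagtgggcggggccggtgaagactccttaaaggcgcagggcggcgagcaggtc

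**Figure D4:**
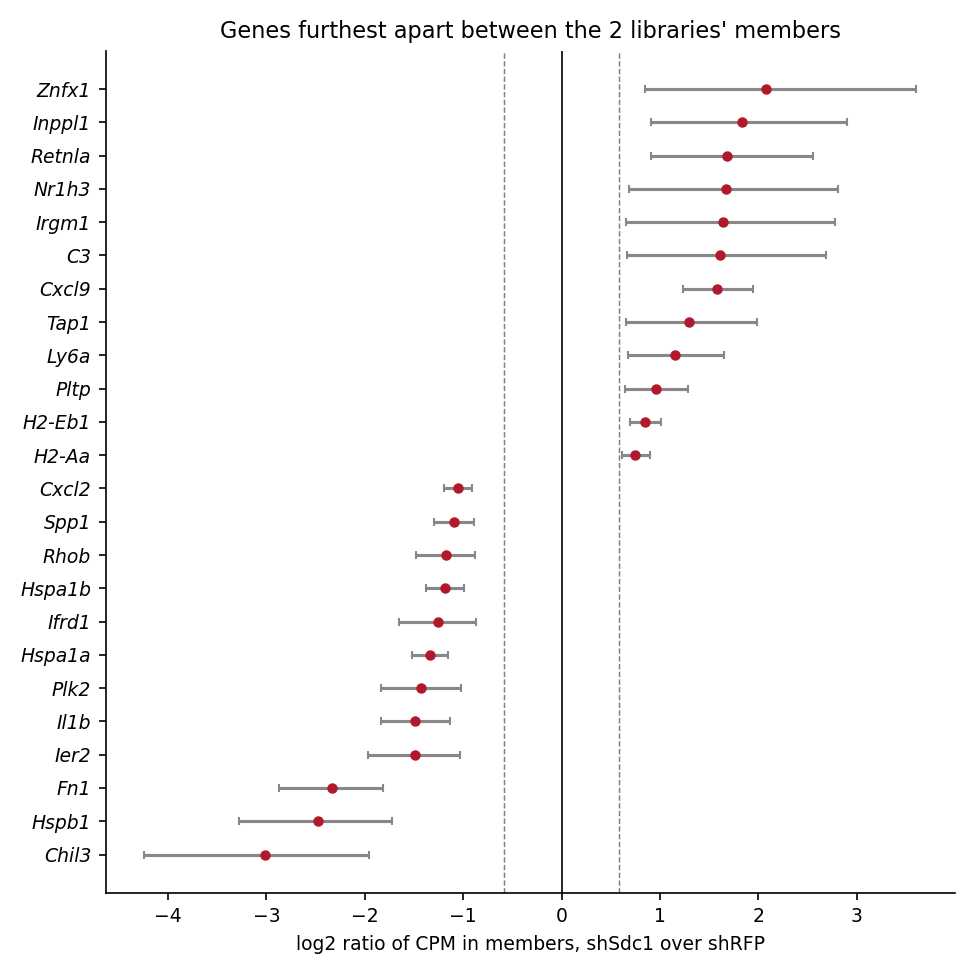
Log2 ratio of CPM in members, shSdc1 over shRFP, for the 12 highest and 12 lowest genes by the interval bound nearest to 1 (points) with exact 95% intervals (bars) and dashed lines at 1.5-fold. Cxcl9 is at 2.99-fold and Fn1 at 0.199, while Chil3, the lowest point, is at the level of T cell barcodes in shRFP.

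Members were also compared by their own Ccl8 level, as a description. Ccl8 counts toward the 6-gene sum, so members with at least 3 Ccl8 UMIs reached its minimum on Ccl8 alone. Members without Ccl8 had to reach it on the other genes of the sum, so the 2 groups entered by different genes. In shSdc1 274 members had at least 3 Ccl8 UMIs and 372 had none, and in shRFP 73 and 239, at similar depths (medians of 848.5 and 868 UMIs in shSdc1, 1087 and 1141 in shRFP). Of 1195 genes measured, 10 were at least 1.5-fold higher in the Ccl8-rich members in both libraries (0.837%) and 6 at least 1.5-fold lower (0.502%). Cxcl9 was at 769 CPM in Ccl8-rich members and 274 CPM in Ccl8-negative members of shSdc1, and at 238 and 117 CPM in shRFP. The chemokine Ccl6 had ratios of 1.97 in shSdc1 and 1.93 in shRFP, Fabp5, a fatty acid-binding protein, 1.56 and 2.05, and Folr2 1.65 and 2.95. Tgfbi, a matrix protein, was lower in Ccl8-rich members, at 0.573 and 0.658. The interferon gamma list had a median log2 ratio, shSdc1 over shRFP, of 1.003 in Ccl8-negative and 1.19 in Ccl8-rich members, and the stress list -0.73 and -0.49. The type I interferon list was at 0.75 in Ccl8-negative and -0.14 in Ccl8-rich members.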

How the data were processed

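The deposited 10x matrices hold raw UMI counts. Cell Ranger 6.1.1 made them, per the file headers, on build mm10, per the submitters' processing notes. No annotation release was found in the sources. The deposited barcode and feature names are other text, and 31107 of 31253 features (99.53%) were in GENCODE M21. Counts were summed per symbol over members (Python 3.11.15, pandas 2.3.3, scipy 1.17.1) and scaled to CPM. Ratios have exact conditional binomial intervals and shares Clopper-Pearson intervals, all at 95%, checked on simulated data. A gene with no UMI in 1 library is set against a floor of 3 counts. Depth per member was 852 and 1115 UMIs in the middle of shSdc1 and shRFP. Scrublet ran through scanpy 1.11.5, and edgeR 4.0.16 gave TMM factors only.

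Named genes were the 12 highest and 12 lowest by the interval bound nearest to 1 among genes with at least 50 UMIs and 1.5-fold. Mitochondrial, ribosomal, hemoglobin, immunoglobulin, T cell receptor, Y-linked and unnamed genes, Xist and genes of the rule were left out, and list genes with at least 20 UMIs serve as examples. Members, lists and this rule were chosen with earlier results of these data known. The motif letters were chosen with results known, and the interferon and NF-kB motifs were shortened by 1 letter after counts with the longer forms had been seen; the shorter forms occur in more of all promoters too. Ccl8 levels under the rule without Ccl8, and CD3-positive barcodes with any number of C1q UMIs, were added after seeing the data.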

Additional observations from a re-analysis of the deposited data

Results flagged for a closer look

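H2-Aa and H2-Eb1, of MHC class II, differed at least 1.5-fold between the libraries in opposite directions in C1q and Ccl8 macrophages and in Gpnmb-side macrophages. The median log2 ratio of the list, shSdc1 over shRFP, was 0.55 in members and -0.38 in Gpnmb-side macrophages. H2-Aa had a ratio of 1.68 in members and 0.657 in Gpnmb-side macrophages, and H2-Eb1 1.81 and 0.664. H2-DMa (1.09 and 1.15) and Ciita (2.31 and 1.78) lay above 1 in both classes, with intervals that included 1. In Gpnmb-side macrophages Ciita had 4 UMIs in shSdc1 and 2 in shRFP, with an interval of [0.255 to 19.7]. With 1 library per group this difference was not tested. Of 1239 genes with at least 50 UMIs in both classes, 3 had 1.5-fold differences in opposite directions with both intervals off 1. The third was Kdm7a, a histone demethylase gene, at 1.68 in members and 0.459 in Gpnmb-side macrophages, also not tested.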

How the results depend on the processing

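No paired analysis was possible because each group is 1 library. Of the 6 values that answer a comparison (2 share ratios, shSdc1 over shRFP, and counts of genes at least 1.5-fold apart between libraries or from Gpnmb-side macrophages), neither share ratio fell below 1. With every barcode thinned to 500 UMIs the share ratios were 2.62 of quality-passing and 1.74 of C1q barcodes, and the counts 79 higher and 92 lower in shSdc1, and 14 higher and 46 lower than in Gpnmb-side macrophages. In that order, barcodes of 600 to 1500 UMIs, a setting chosen after seeing the data, gave 2.34, 1.63, 186, 162 and 62. C1q and 6-gene sums of at least 5 gave 194 higher in shSdc1, and 59 and 94 against Gpnmb-side macrophages. At least 1 UMI in each library gave 1821, 1944, 724 and 580 genes, and at least 100 UMIs 98, 98, 42 and 91. The quality-passing ratio was 1.58 with at least 500 genes, and 2.37 without barcodes holding lymphocyte markers, also chosen after seeing the data. With barcodes thinned to 500 UMIs, the smaller ratios of Pou2f2 (0.541), Cx3cr1 (0.991) and Tmem86a (0.901) against Gpnmb-side macrophages used the floor of 3 counts. The Gpnmb side had no UMI of these genes there, so the values below 1 are not reversals. Of 348 recomputed list medians 34 lay on the other side of 0, in 9 lists whose main medians were at most 0.20 in size, and 2 left the interval of the main median. The interferon gamma median was 0.13 to 0.83 over the alternatives, the lowest at 500 UMIs per barcode, where fewer genes were measured. Which direction held more genes changed with the setting: between libraries 79 higher and 92 lower at 500 UMIs, 194 and 220 with both sums at 5 or more, and against Gpnmb-side macrophages 724 and 580 with at least 1 UMI. Moved over 1.5 times at 500 UMIs were also Irgm1 (6.79), Znfx1 (2.20), Retnla (1.75) and Hspb1 (0.109). Against Gpnmb-side macrophages the smaller ratios of Igfbp4 (1.98, also against the floor), Thbs1 (0.0861), Spp1 (0.111) and Mmp12 (0.394) moved over 1.5 times too. Few UMIs per barcode limit any statement on rare transcripts. Main list medians took no gene under 20 UMIs, but single genes given for other classes or at 500 UMIs per barcode could have fewer.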
